A study of Mus musculus with 56 samples.

Results

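Txnip and 4 related genes, Arrdc1, Arrdc2, Arrdc3 and Arrdc4, make up the alpha-arrestins followed here in the hearts of mice fed at opposite times of day. They were taken by gene symbol, and all 5 were found among 22864 genes in the expression table and passed the filter on low values, an average of 1 TPM or more (TPM, a library's reads per transcript length on a common scale). Hearts came from adult female C57BL/6J mice 9 weeks of age, housed on a cycle of 12 h light and 12 h dark, and fed for 7 days either only by day (daytime-restricted feeding, DRF) or only by night (nighttime-restricted feeding, NRF, the reference). PolyA RNA was sequenced every 4 h at 7 zeitgeber times (ZT), where ZT0 is the hour at which the lights came on and ZT24 closes the day, with 4 libraries for each time and regimen, 56 in all. No mutant allele or drug was used in either group. The labels number the libraries within a group and do not say whether each is a separate animal, so p-values measure the spread between these libraries.

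Alpha-arrestins are adaptor proteins that carry an arrestin fold and, in most members, short motifs that bind ubiquitin ligases of the NEDD4 family, which lets them mark membrane proteins for internalisation. Txnip, thioredoxin-interacting protein, also binds thioredoxin and lowers glucose uptake by promoting the internalisation of glucose transporters. Its transcription is known to follow glucose through the factors MondoA and ChREBP (Mlxip and Mlxipl), which act with Mlx at carbohydrate response elements, and Arrdc4 is known as a further target of the same factors. Arrdc1 takes part in the budding of vesicles from the plasma membrane, and Arrdc3 has been tied to the trafficking of beta-adrenergic receptors.

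The stretches before the start sites of Txnip and Arrdc4 are shown because these 2 genes are the known targets of the glucose-sensing factors. Both come from RefSeq on GRCm38.p6 and run from base 250 to base 11 before the start, 5′ to 3′ on the strand of the gene. The Txnip stretch lies at chr3:96557707-96557946 on the plus strand and that of Arrdc4 at chr7:68749249-68749488 on the minus strand. Capitals mark matches, on either strand, to a ChoRE-type motif (half-sites CACGNG and CNCGNG with 5 bases between them), an E-box (CACGTG), a forkhead motif (GTAAACA) and a CCAAT box (CCAAT).
Txnip: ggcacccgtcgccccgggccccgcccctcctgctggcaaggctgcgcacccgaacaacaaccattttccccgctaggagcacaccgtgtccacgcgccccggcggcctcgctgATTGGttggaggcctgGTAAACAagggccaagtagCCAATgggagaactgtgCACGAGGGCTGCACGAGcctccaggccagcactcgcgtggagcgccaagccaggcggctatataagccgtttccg
Arrdc4: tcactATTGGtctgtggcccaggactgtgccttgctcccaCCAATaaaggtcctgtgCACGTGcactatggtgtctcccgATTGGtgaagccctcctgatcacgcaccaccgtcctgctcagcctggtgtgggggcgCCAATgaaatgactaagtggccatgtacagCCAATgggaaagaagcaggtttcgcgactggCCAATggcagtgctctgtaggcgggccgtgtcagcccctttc

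Txnip held the ChoRE-type motif at bases 85 to 69 before its start and the forkhead motif at bases 121 to 115. Among all 32851 promoter windows of 300 bases, 0.365% held the ChoRE-type motif and 3.65% the forkhead motif, and of the 7 windows of the 5 alpha-arrestins the one at Txnip held either. Arrdc4 held an E-box at bases 193 to 188, a motif in 7.15% of windows, and 6 CCAAT boxes, a motif in 37.4% of windows. The letters searched were not found in the Arrdc1 window. A match describes these letters and was not tested as a binding site, and the lack of a match does not show that no site is present. A link between these letters and the time courses was not tested.

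Libraries held 29.3 M to 53.0 M reads (median 37.4 M). The heart label was checked by its markers, with the 5 cardiomyocyte genes (Myh6, Tnnt2, Actc1, Tnni3 and Myl2) summing to between 23008 and 36861 TPM in every library. Other tissue was present to an uneven degree, since 3 erythroid markers summed to 1300 to 57982 TPM, 4 atrial markers to 95.1 to 5488 TPM and 4 adipocyte markers to 4.06 to 214 TPM, with ranges that overlapped between regimens. No marker of these 3 lists was called for rhythm or for mean level, but the median atrial sum was 1805 TPM under DRF and 609.5 TPM under NRF, and the 4 atrial genes were higher under DRF by 0.79 to 1.26 on the log2 scale (adjusted p from 0.0766 to 0.101). In whole tissue, fewer cells of a type and less RNA per cell cannot be told apart.

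Txnip was by far the most abundant alpha-arrestin in the heart. On the TPM scale, which corrects for transcript length, its median was 277 (157 to 821 over 56 libraries), against 17.6 for Arrdc3 (11.0 to 24.8), 10.5 for Arrdc4 (6.98 to 17.2), 5.17 for Arrdc1 (3.14 to 7.08) and 5.01 for Arrdc2 (3.03 to 20.3). Txnip exceeded each of the others in 56 of 56 libraries, and Arrdc3 exceeded Arrdc4 in 54. Arrdc1 exceeded Arrdc2 in 29 of 56 libraries, so these neighbours did not separate. In the GENCODE M21 annotation of GRCm38, Txnip lies on chromosome 3 from 96557957 to 96561883 and Arrdc3 on chromosome 13 from 80883384 to 80896042, both on the plus strand. On the minus strand, Arrdc1 spans 24925352 to 24935252 of chromosome 2, Arrdc2 spans 70835129 to 70839720 of chromosome 8 and Arrdc4 spans 68736995 to 68749241 of chromosome 7. The counts behind these levels ran from 8122 to 41472 reads per library for Txnip and from 138 to 317 for Arrdc1. The strand setting of the counting is not known. On the opposite strand, Gm15441 overlaps Txnip and 1700023H06Rik overlaps Arrdc3, and they averaged 0.941 and 0.111 TPM. Arrdc5, a further member of the family outside the set, averaged 0.788 TPM and fell below the filter.

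**Figure D1:**
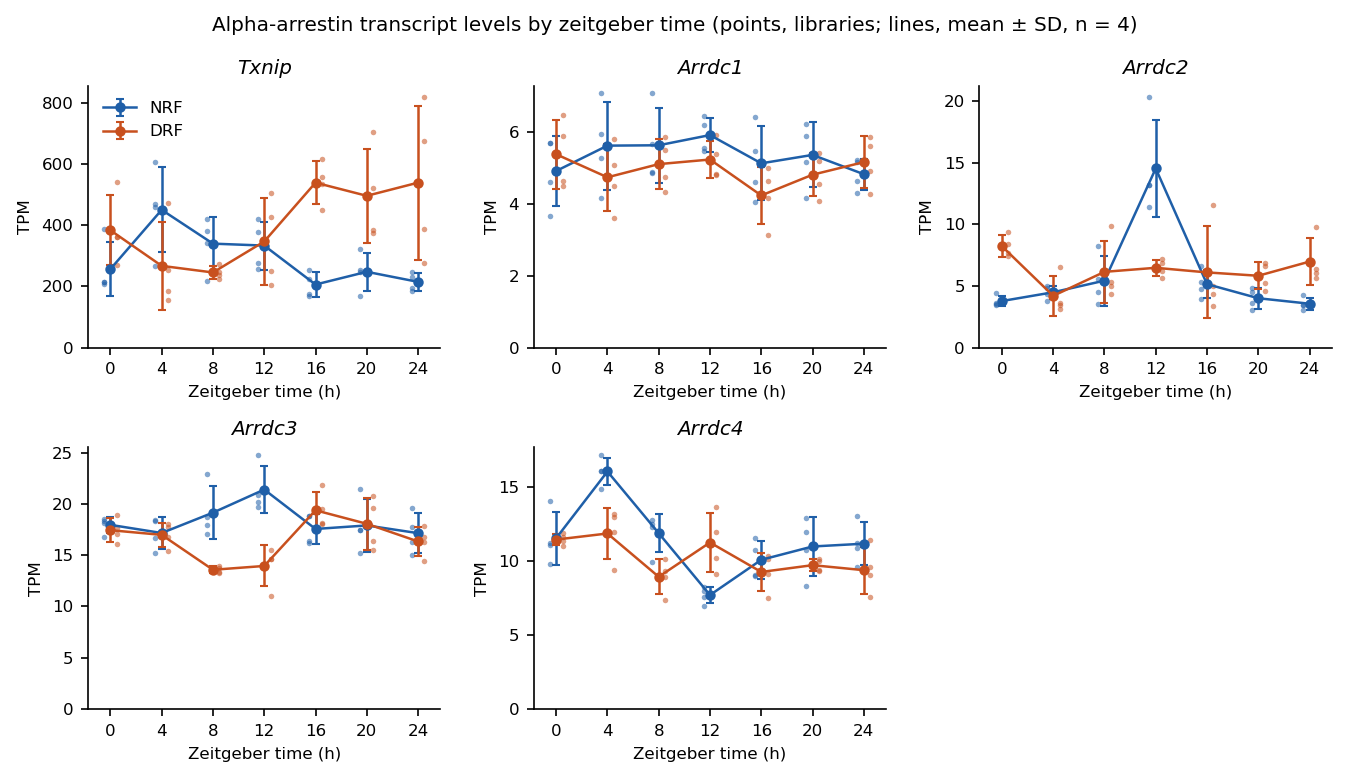
TPM of the 5 alpha-arrestins against zeitgeber time in hours, with NRF in blue and DRF in orange. Small points are single libraries and lines join group means ± SD (n = 4). Txnip under DRF is high from ZT16 to ZT24, where NRF is low, and Arrdc2 under NRF has a single high group at ZT12.

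The first question was whether each gene kept a daily rhythm. A cosine of 24 h was fitted to log2(TPM + 1) over the 28 libraries of a regimen, and the p of its limma F test was adjusted by Benjamini-Hochberg over the 13893 genes tested. Under NRF, 3 of the 5 were rhythmic, namely Txnip, Arrdc2 and Arrdc4, against 37.2% of all genes tested. Under DRF, 2 of the 5 were, Txnip and Arrdc3, against 32.3%. Txnip alone among the 5 was rhythmic under both regimens, as were 17.5% of all genes. Arrdc1 passed under neither (adjusted p = 0.275 under NRF and 0.584 under DRF, limma).

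The second question was whether the rhythm differed between regimens in clock time, that is, at the same ZT. It did for Txnip, Arrdc2 and Arrdc3, 3 of 5 against 27.6% of all genes tested (adjusted p = 2.86e-05, 0.00114 and 0.00135, limma F test over 56 libraries). Of the cell type markers, Kdr (endothelial) and Pdgfra (fibroblast) also differed (adjusted p = 0.0212 and 0.0354), and their part in these calls was not tested. Arrdc4 missed the threshold (adjusted p = 0.0968), but passed it when libraries were rescaled by the median of ratios (adjusted p = 0.0396), where 33.1% of all genes did. When NRF times were moved by 12 h, so that both regimens were lined up on the start of feeding, Arrdc2 and Arrdc4 differed (adjusted p = 0.00868 and 0.00202), 2 of 5 against 41.3% of all genes. Arrdc3 missed the threshold (adjusted p = 0.155) but passed it after rescaling (adjusted p = 0.0171, with 44.9% of all genes called) and on the deposited values (adjusted p = 0.0448), and the Arrdc2 call ended without the libraries numbered 2 or 4 (adjusted p = 0.0635 and 0.0688). For Txnip the rhythms in feeding time gave an adjusted p of 0.729, which does not show that they were equal. Its differences by feeding time were all positive on the log2(TPM + 1) scale, the largest at 12 h and 20 h (0.60 ± 0.30 and 0.54 ± 0.30). None was called (adjusted p = 0.286 and 0.194 at these times, limma).

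Txnip peaked at opposite clock times in the 2 regimens. Under NRF its fitted peak was at ZT 6.98 ± 0.82 h (SE, n = 28) and under DRF at ZT 18.9 ± 0.728 h, a shift of 11.9 h with a 95% interval from 9.62 to 14.1 h. By the limits of the study, 0 to 4 h for phase-locked and 8 to 12 h for phase-inverted genes, Txnip was inverted, a class that held 17.7% of the 2438 genes rhythmic under both regimens. The amplitude on the log2 scale was 0.458 ± 0.11 under NRF and 0.622 ± 0.133 under DRF, a log2 ratio of 0.44 ± 0.46 (SE) that was within its error. Leaving out the libraries numbered 3 or 4 ended the call of a rhythm under NRF (adjusted p = 0.0663 and 0.0599), while the clock-time difference held without each replicate number.

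Values of Txnip in single libraries separated in the dark phase. At ZT16 the DRF libraries stood at 557, 618, 449 and 535 TPM and the NRF libraries at 176, 226, 168 and 255 TPM. Every DRF library was above every NRF library at this time, by 1.39 ± 0.30 on the log2(TPM + 1) scale (SE, adjusted p = 0.00384, limma). Without the libraries numbered 3 the difference stayed at 1.39 and the call ended (adjusted p = 0.0617). Groups also did not overlap at ZT20, where DRF was higher by 0.99 ± 0.30 (adjusted p = 0.0221), a call that ended without replicate 1 or 2 of DRF or replicate 4 of NRF at that time (adjusted p from 0.0637 to 0.0939). At ZT24 DRF held 821, 387, 675 and 276 TPM and NRF 232, 248, 184 and 196 TPM, a difference of 1.21 ± 0.30 (adjusted p = 0.00871). The DRF libraries of ZT24 were spread widely, and without the highest of them the difference was 0.96 (adjusted p = 0.0738). Across all genes 6.87%, 14.8% and 8.83% were called at ZT16, ZT20 and ZT24. Of the markers, Myl2 of cardiomyocytes was higher under DRF at ZT16 (0.29, adjusted p = 0.0376), Tcf21 of fibroblasts was lower at ZT20 (-0.58, adjusted p = 0.00264) and none was called at ZT24. The share of mitochondrial reads at ZT20 also separated the groups, at 22.5% to 24.9% under DRF and 19.5% to 20.5% under NRF, while at the other times it overlapped. The part of these in the Txnip differences was not tested.

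At ZT4 the Txnip means stood in the other order. The NRF libraries held 469, 268, 607 and 459.7 TPM of Txnip and the DRF libraries 474, 253, 186 and 157 TPM. The groups overlapped through the first DRF library, and the difference of -0.83 ± 0.30 missed the threshold (adjusted p = 0.234). Without that DRF library it was -1.15 and passed (adjusted p = 0.0289), where 0.446% of all genes were called with every library in. ZT0 and ZT24 are the same clock hour a day apart, and under DRF Txnip averaged 384 ± 114 and 539.9 ± 252 TPM (SD, n = 4) at them.

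**Figure D2:**
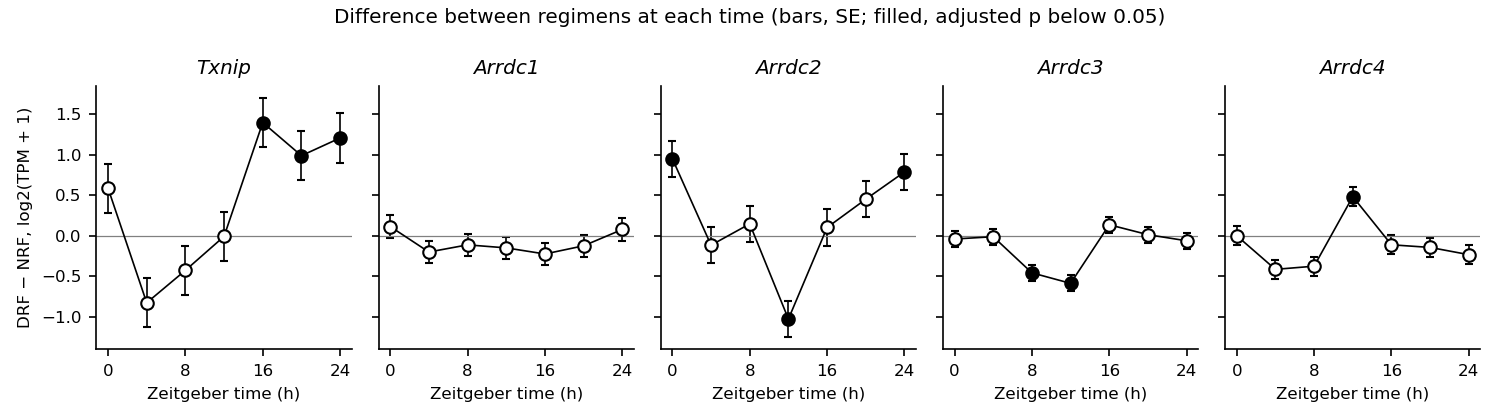
Difference of DRF from NRF on the log2(TPM + 1) scale at each zeitgeber time in hours, with bars of 1 SE from the fit of 14 group means. Filled points passed an adjusted p of 0.05, and Txnip, Arrdc2, Arrdc3 and Arrdc4 each have filled points while Arrdc1 has none.

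Arrdc2 was marked by a single time of day under NRF. At ZT12, the onset of darkness and of food for these mice, its libraries held 20.3, 13.2, 13.2 and 11.4 TPM, and the other NRF groups averaged between 3.56 and 5.43 TPM. DRF libraries at ZT12 held 7.17, 6.86, 6.19 and 5.67 TPM, all below the NRF libraries, with a log2 difference of -1.03 ± 0.22 (adjusted p = 0.00312, limma), while 7.64% of all genes were called at that time. At ZT0, when food was given to the DRF mice, the order was reversed. There DRF libraries held 9.37, 8.44, 7.67 and 7.40 TPM and NRF libraries 4.42, 3.62, 3.49 and 3.57 TPM, higher under DRF by 0.95 ± 0.22 (adjusted p = 0.0034, 11.4% of all genes called). At ZT0 the endothelial marker Kdr (-0.46, adjusted p = 0.00714), the smooth muscle marker Acta2 (-0.63, adjusted p = 0.03) and the cardiomyocyte marker Actc1 (-0.45, adjusted p = 0.00973) were lower under DRF, and their part in the Arrdc2 difference was not tested. ZT24 repeated that direction at 0.79 ± 0.22 (adjusted p = 0.0201), and this call ended without replicate 3 of DRF or replicate 3 or 4 of NRF at ZT24 (adjusted p from 0.0522 to 0.107).

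The fitted NRF amplitude of Arrdc2 was 0.612 ± 0.1 with a peak at ZT 11.7 ± 0.708 h, and the DRF amplitude was 0.122 ± 0.111, which was not called (adjusted p = 0.643). On feeding time, Arrdc2 at the start of food was lower under DRF than under NRF by 0.72 ± 0.22 in size (difference of -0.72, adjusted p = 0.0401, 6.18% of all genes called), and 12 h later it was higher by 0.72 ± 0.22 (adjusted p = 0.0487, 5.18% of all genes called). In the first of these comparisons Kdr (0.42, adjusted p = 0.0218) and the atrial marker Nppa (2.78, adjusted p = 0.0447) were higher under DRF and the leukocyte marker Cd68 was lower (-0.66, adjusted p = 0.0128), and in the second Kdr was lower (-0.73, adjusted p = 5.01e-05). Their part in the Arrdc2 differences was not tested. Both Arrdc2 calls sat at the threshold: leaving out any one of 7 libraries ended the first (adjusted p up to 0.184) and any one of 39 libraries the second (adjusted p up to 0.129). The first also ended with a pseudocount of 0.1, with no filter and on the deposited values (adjusted p = 0.0567, 0.0588 and 0.108). With no filter the second ended as well (adjusted p = 0.0731). Without ZT12 Arrdc2 was not called in feeding time (adjusted p = 0.854) or in clock time (adjusted p = 0.0922).

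Arrdc3 was lower under DRF than under NRF at ZT8 and ZT12. At ZT8 the DRF libraries held 13.8, 13.3, 13.9 and 13.3 TPM against 17.9, 17.1, 18.7 and 22.9 TPM under NRF, and at ZT12 they held 11.0, 14.6, 14.7 and 15.5 TPM against 19.7, 24.8, 20.9 and 20.2 TPM. No DRF library reached an NRF library at either time. The log2 differences were -0.46 ± 0.10 at ZT8 (adjusted p = 0.0186, 0.353% of all genes called) and -0.59 ± 0.10 at ZT12 (adjusted p = 0.000349). At ZT12 the cardiomyocyte marker Myh6 (-0.44, adjusted p = 0.00916) and the endothelial marker Tie1 (-0.39, adjusted p = 0.022) were also lower under DRF and the smooth muscle marker Tagln was higher (0.47, adjusted p = 0.0414), and their part in the ZT12 differences of Arrdc2, Arrdc3 and Arrdc4 was not tested. For Arrdc3, removing any one of 4 libraries ended the call at ZT8 (adjusted p up to 0.245). In the DRF fit the peak was at ZT 20.2 ± 0.842 h with an amplitude of 0.192 ± 0.0445, a rhythm no longer called without replicate 2, replicate 4 or ZT8 (adjusted p = 0.058, 0.0647 and 0.109). The NRF fit peaked at ZT 11.3 ± 1.58 h and was not called (adjusted p = 0.0836), except without ZT16 (adjusted p = 0.0383). On feeding time, 1 of 6 comparisons was called, 8 h after the start of food, at -0.37 ± 0.10 (adjusted p = 0.0183, 5.48% of all genes called), which ended without replicate 2 of DRF at ZT8 or of NRF at ZT20 (adjusted p = 0.0526 and 0.112). After rescaling 3 of the 6 were called, lower under DRF at 8 h and at 12 h (-0.35 and -0.28, adjusted p = 0.0105 and 0.0472) and higher at 16 h (0.28, adjusted p = 0.0226), where rescaling also moved the share of all genes called to 10.7%, 8.68% and 21.9%.

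Arrdc4 and Txnip, the 2 known targets of the glucose-sensing factors, differed in course by description, without a test of one against the other. Under NRF both were highest at ZT4, where Arrdc4 held 16.1, 16.1, 14.9 and 17.2 TPM, but Arrdc4 was lowest at ZT12 with 7.60, 7.99, 8.22 and 6.98 TPM, so that its group means spanned a 2.08-fold range. Under DRF its group means stayed between 8.93 and 11.9 TPM, the amplitude was 0.0701 ± 0.0577 and no rhythm was called (adjusted p = 0.584), against an NRF amplitude of 0.294 ± 0.0619 with a peak at ZT 3.11 ± 0.797 h. At ZT12 the DRF libraries, at 13.6, 12.0, 9.15 and 10.2 TPM, were all above the NRF libraries, by 0.48 ± 0.12 (adjusted p = 0.00941), and without the highest of them the difference was 0.39 (adjusted p = 0.0582). At ZT4 the order was the opposite, with every DRF library (9.38 to 13.1 TPM) below every NRF library, but the difference of -0.42 ± 0.12 missed the threshold (adjusted p = 0.106), which it passed without the libraries numbered 1 (-0.46, adjusted p = 0.0424).

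Lined up on feeding time, Arrdc4 gave the smallest adjusted p of the 30 pairs of a gene and a feeding time. At 16 h after the start of food, the NRF libraries of ZT4 were all above the DRF libraries of ZT16, which held 7.51, 10.1, 9.10 and 10.3 TPM, and the difference of DRF from NRF was -0.74 ± 0.12 (adjusted p = 1.52e-05, limma), where 22.7% of all genes were called. At the start of food it was 0.52 ± 0.12 (adjusted p = 0.0041), a comparison in which Kdr, Nppa and Cd68 were called as given for Arrdc2. In the comparison at 16 h, 3 of 4 endothelial markers, the fibroblast marker Col1a1 and the smooth muscle marker Acta2 were lower under DRF and 2 of 4 atrial markers higher. The part of these markers in the Arrdc4 differences was not tested. Of all genes called there 490 were higher and 2659 lower on the TPM scale, and 1388 and 1657 after rescaling, where the Arrdc4 difference was -0.63 (adjusted p = 0.000112). In those 2 comparisons the Txnip difference was 0.31 ± 0.30 and 0.19 ± 0.30 (adjusted p = 0.491 and 0.793). Without ZT4 the rhythm of Arrdc4 in feeding time was no longer called as different (adjusted p = 0.125). Over the 14 group means, the Pearson correlation of Arrdc4 with Txnip was -0.04 and with Arrdc2 -0.59, given as a description of 14 points that share a day and a regimen.

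**Figure D3:**
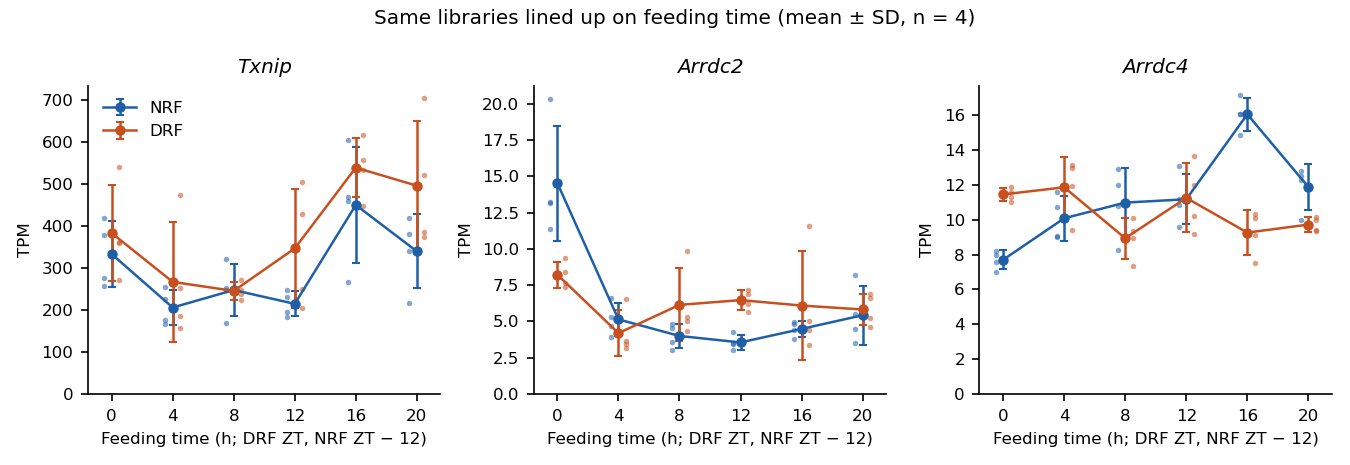
TPM of Txnip, Arrdc2 and Arrdc4 against feeding time in hours, with DRF at its own zeitgeber time and NRF moved by 12 h (points, libraries, and lines, mean ± SD, n = 4). The Txnip error bars of both regimens overlap at every time shown, with higher DRF means at 12 h and 20 h. Arrdc2 parts at 0 h and at 12 h, and Arrdc4 under NRF has a peak at 16 h that the DRF line lacks.

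Arrdc1, the vesicle-budding member, gave no call in any comparison. Its group means ran from 4.23 to 5.38 TPM under DRF and from 4.82 to 5.91 TPM under NRF, and the DRF and NRF libraries overlapped at every time. None of its 7 differences by ZT and 6 by feeding time passed, the nearest being -0.33 ± 0.14 at 16 h after the start of food (adjusted p = 0.0763), which passed without the first NRF library of ZT4 (-0.45, adjusted p = 0.0176) or the first DRF library of ZT16 (-0.40, adjusted p = 0.045).

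In all, 9 of 35 pairs of a gene and a ZT were called, against 7.19% of such pairs over all genes tested, and 5 of 30 pairs of a gene and a feeding time, against 11.7%. Without each replicate number in turn, 3 of the 9 stayed called throughout (Arrdc2 at ZT0 and ZT12, Arrdc3 at ZT12), as did 2 of the 5 (Arrdc4 at the start of food and 16 h later). No alpha-arrestin was called 4 h or 20 h after the start of food, where 6.4% and 24.1% of all genes were.

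**Figure D4:**
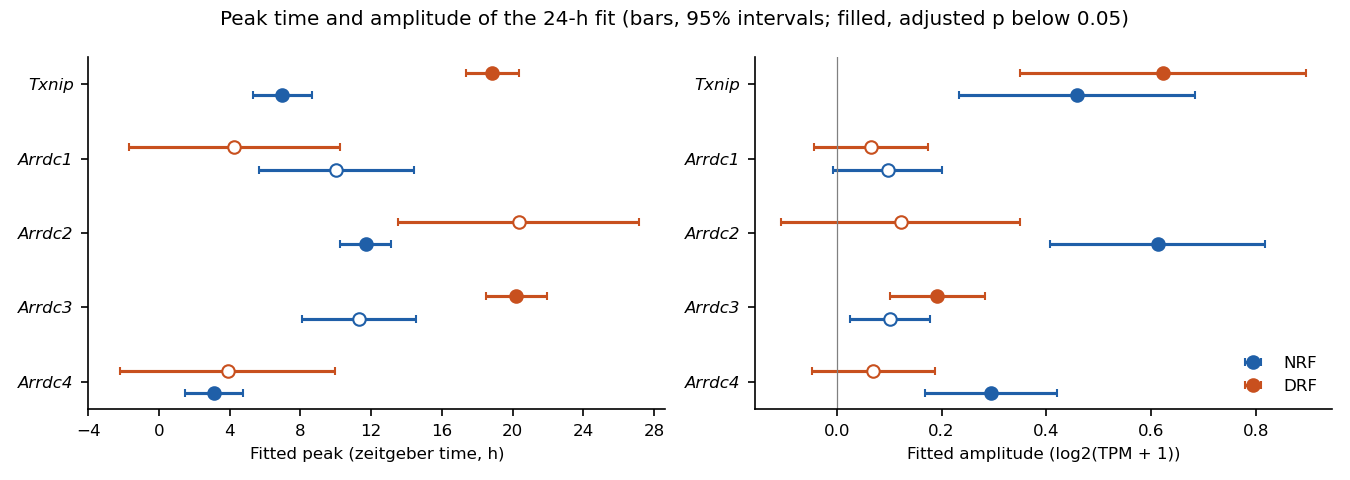
Fitted peak as zeitgeber time in hours (left) and amplitude in log2(TPM + 1) units (right) for each gene under NRF (blue) and DRF (orange), with 95% intervals, which for genes without a called rhythm can run past 0. Filled points passed an adjusted p of 0.05, and the Txnip peaks at ZT 6.98 and ZT 18.9 have intervals that do not meet.

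Averaged over the day, Arrdc3 was lower under DRF and Txnip was higher, 2 of 5 against 25.9% of all genes tested (1.67% higher and 24.2% lower under DRF). For Txnip, the 28 DRF libraries had a mean of 403 ± 173 TPM (SD) and the 28 NRF libraries one of 293 ± 110 TPM, a difference of 0.38 ± 0.12 on the log2 scale (adjusted p = 0.0199). Without the libraries numbered 1 or 2 the Txnip difference was no longer called (adjusted p = 0.111 in both), nor was it without ZT8, ZT16 or ZT24 (adjusted p = 0.182, 0.168 and 0.0799). Arrdc3 averaged 16.5 ± 2.45 and 18.3 ± 2.26 TPM, a difference of -0.17 ± 0.04 (adjusted p = 0.00271), with an adjusted p of 0.0542 after median-of-ratios rescaling. Without ZT12 the Arrdc3 difference was -0.10 and not called (adjusted p = 0.115), while Arrdc4 was then called lower under DRF (-0.24, adjusted p = 0.00289). On the TPM scale 232 genes were higher and 3366 lower under DRF, a split that rescaling moved to 807 and 1020. All 4 endothelial markers were also lower under DRF (sums of 351 to 611 TPM against 416 to 720 TPM), as were 3 of 4 fibroblast markers, and 2 and 1 of them after rescaling. The leukocyte markers Cd68 and Adgre1 (-0.28 and -0.20), Acta2 (-0.25) and Actc1 (-0.18) were lower too and Tnnt2 was higher (0.10), of which Cd68 and Tnnt2 were still called after rescaling. The part of these markers in the Arrdc3 and Txnip differences was not tested, nor was that of the atrial markers in the Txnip difference. Mitochondrial reads made up 21.8% ± 1.47 (SD, n = 28) of the DRF libraries and 20.4% ± 1.57 of the NRF libraries, and the part of this was not tested either.

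The lists of related genes are read against 27.6% of all genes called for a different rhythm in clock time. Among the genes that sense glucose, 1 of 3 differed in rhythm in clock time. This was Mlxip, which encodes MondoA, with peaks at ZT 14 under NRF and ZT 0.526 under DRF (adjusted p = 0.00112, limma). Mlxipl and Mlx did not pass (adjusted p = 0.33 and 0.435). Of 8 glucose-responsive genes tested, 2 differed, a share near that of all genes, Klf10 (with no rhythm called under either regimen) and the fatty acid elongase Elovl6. In mean level 4 of the 8 were higher under DRF on both scalings. Of all 13893 genes tested, 232 (1.67%) were higher on the TPM scale and 807 after rescaling. The 4 were the lipid synthesis genes Scd1 (1.14), Fasn (0.55), Elovl6 (0.45) and Acaca (0.28 on the log2 scale), and Rgs16 was lower (-0.38). Of 4 adipocyte markers, Ucp1 (0.75), Plin1 (0.38) and Adipoq (0.28) were also above NRF under DRF in mean level and Cfd below (-0.36), none of them called (adjusted p from 0.12 to 0.405). At ZT12, where Scd1 (2.37) and Elovl6 (1.49) were called higher, Ucp1 stood at 2.32, Adipoq at 0.99 and Plin1 at 0.96, again not called. Their part in the lipid synthesis differences was not tested.

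Partners and cargo of the family were read against the same 27.6%, and counts after rescaling against 33.1% of all genes. In the thioredoxin system 2 of 5 genes differed in rhythm, thioredoxin itself (Txn1, adjusted p = 0.01, with no rhythm called under either regimen) and the reductase Txnrd3 (adjusted p = 0.0146). Of 6 cargo genes 3 differed, the insulin receptor Insr (adjusted p = 0.00202) and the glucose transporters Slc2a4 (adjusted p = 0.0116) and Slc2a1 (adjusted p = 0.0182). Slc2a4, the insulin-responsive transporter of muscle, had an amplitude of 0.165 under NRF and 0.0326 under DRF, where no rhythm was called. Among 8 NEDD4-family ligases tested 4 differed, led by Wwp2, Nedd4 and Wwp1 (adjusted p = 0.000501, 0.0062 and 0.0247), and after rescaling 3 did, with Wwp1 lost (adjusted p = 0.0525). On the TPM scale none of 4 vesicle release genes and neither of the 2 other arrestins tested, Arrb1 and Arrb2, passed, while after rescaling Vps4a (adjusted p = 0.00668) and Arrb2 (adjusted p = 0.0191) did.

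Genes that respond to energy state and hormones followed, with counts after rescaling read beside 33.1% of all genes. Of 8 insulin and FOXO readouts 6 differed in clock time, again beside 27.6% of all genes, among them Pdk4, the kinase that restrains pyruvate oxidation, with peaks at ZT 5.15 under NRF and ZT 21.5 under DRF and amplitudes of 1.33 and 1.85, Foxo3 and the muscle ubiquitin ligase Trim63. Of 7 AMPK subunits 1 differed, Prkab1 (adjusted p = 0.00975), and after rescaling Prkaa1 as well (adjusted p = 0.00716). Among 6 glucocorticoid readouts 5 differed, led by Klf9, Cdkn1a and Tsc22d3, and 4 after rescaling, with Zbtb16 lost (adjusted p = 0.0554). The median shift of the glucocorticoid list was 2.49 h. All 4 clock genes examined (Arntl, Nr1d1, Dbp and Per2) were rhythmic under both regimens and all 4 differed in clock time (adjusted p from 3.2e-07 to 0.00299). Their DRF amplitudes were below those under NRF, by log2 ratios from -0.76 (Arntl) to -0.43 (Nr1d1). Their median shift was 1.6 h, against 3.81 h over the 2438 genes rhythmic under both and 11.9 h for Txnip.

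The tested genes whose 14 group means were most like those of Txnip were Klf11 (Pearson r = 0.92), Pck1 (0.86), Zfp879 (0.85), Retreg1 (0.85) and Zfp120 (0.85). Klf11, a zinc finger transcription factor, peaked at ZT 6.78 under NRF and ZT 19 under DRF. For Arrdc2 they were Jade2 (0.96), Pld1 (0.95) and Adap2 (0.95), for Arrdc4 Tmem263 (0.85), Tmem267 (0.85) and Bcl3 (0.82), for Arrdc3 Fam193a (0.84), Map3k8 (0.79) and Gm43587 (0.79), and for Arrdc1 Map4k1 (0.89), Zdhhc20 (0.88) and Prkch (0.88). These are the highest of 13893 genes over 14 points and carry no test.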

How the data were processed

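Heart polyA RNA-seq was analysed from 56 libraries. Per the labels, submitters' processing notes name HISAT2 2.0.5, featureCounts 1.5.0-p3 and build mm10, and the annotation release and strand setting are not given in the sources used here. The deposited values, headed TPM by the authors, are not linear TPM: each was log2(1 + scaled reads) divided by exon length and scaled per library. Whole reads were recovered with GENCODE M21 exon lengths (100% of 1192367 testable values within 0.1 read), and linear TPM was recomputed. Annotated lengths served for 21933 genes, searched lengths for 857, and 4 genes were left out.

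limma 3.58.1 (R 4.3.3, trend = TRUE) was run on log2(TPM + 1) for the 13893 genes that averaged 1 TPM or more, with Benjamini-Hochberg adjustment over all of them and a threshold of 0.05. A harmonic fit of 24 h stood in for the rhythm tests of the study. Fold differences are on the log2(TPM + 1) scale and understate changes of low genes. Scripts were tested on simulated data. The genes and lists were chosen with earlier results of these data known. Named list genes are at most the 3 with the smallest adjusted p for the clock-time difference, and genes in counts of 5 or fewer. Alternatives were another pseudocount, no filter, median-of-ratios scaling, the deposited values, a replicate block, and leaving out replicates, times or libraries.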

Additional observations from a re-analysis of the deposited data

Results flagged for a closer look

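In 3 of 70 groups of 4 libraries, 1 library stood far from the others. These were replicate 1 of NRF at ZT0 for Txnip (390 TPM, with the other 3 between 207 and 216 TPM), replicate 1 of DRF at ZT4 for Arrdc2 (6.57 TPM, the next at 3.63 TPM) and replicate 1 of NRF at ZT0 for Arrdc2 (4.42 TPM, the next at 3.62 TPM). All 3 were high values under number 1, and both flags at NRF ZT0 came from the same library. Chance alone flags about 1 independent group in 20, and the 70 groups share libraries.

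The rhythm differed between regimens by the limma interaction test in clock time for Txnip (adjusted p = 2.86e-05), Arrdc2 (adjusted p = 0.00114) and Arrdc3 (adjusted p = 0.00135), and in feeding time for Arrdc2 (adjusted p = 0.00868) and Arrdc4 (adjusted p = 0.00202).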

How the results depend on the processing

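The 3 genes with a different rhythm in clock time (Txnip, Arrdc2 and Arrdc3) were called in every setting run but one, since Arrdc2 was lost without ZT12, and 4 settings added Arrdc4. No called difference in level changed sign, but some fitted shifts passed 12 h and so changed sign (11.9 h for Txnip and 8.65 h for Arrdc2 with every library in): that of Txnip ran from -11.8 to -10.6 h without ZT0, ZT12 or replicate 2 or 4, and that of Arrdc2 was -9.16 h without ZT4, which are the same clock shifts as 12.2 to 13.4 h and 14.8 h. Pairs of a gene and a feeding time numbered 3 with no filter on low values, 4 with a pseudocount of 0.1 and 7 after median-of-ratios rescaling, in place of 5. Over all genes, the share called at a feeding time ran from 5.18% to 24.1%, and after rescaling from 8.68% to 21.9%. On the deposited values Arrdc2 at the start of food was lost and Arrdc3 at 12 h was added (limma adjusted p = 0.108 and 0.0333). Genes different in feeding time numbered 3 after rescaling (44.9% of all genes) and on the deposited values, with Arrdc3 added. After rescaling 1 gene (Txnip) differed in mean level in place of 2, and 13.2% of all genes in place of 25.9%. Shares over all genes are not given for the other settings. Without ZT8 1 gene was rhythmic under DRF, without ZT4 or without ZT12 1 gene differed in feeding time, without ZT8, ZT16 or ZT24 1 gene differed in mean level, and without ZT16 4 genes were rhythmic under NRF. Without ZT12 2 genes still differed in mean level, but Arrdc4 had taken the place of Arrdc3. The cause was not tested. Leaving out each replicate number gave 2 to 3 genes rhythmic under NRF, 1 to 2 under DRF, 3 to 3 different in clock time, 1 to 2 in feeding time, 1 to 2 in mean level, 4 to 10 pairs by ZT and 2 to 5 pairs by feeding time. Leaving out single libraries gave 8 to 11 pairs by ZT and 3 to 6 by feeding time.

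Replicate numbers did not pair DRF with NRF libraries of the same ZT over all genes tested. Over 28 such pairs, correlations of deviations from group means ran from -0.178 to 0.114 (median -0.0324), and 1 pair was above 0.1. Numbers were not compared across times. For Txnip under DRF, replicate 1 was above replicates 3 and 4 at every ZT, such as 474 against 186 and 157 TPM at ZT4. With the replicate block, 3 genes were rhythmic under NRF, 2 under DRF, 3 differed in clock time, 2 in feeding time and 2 in mean level, with 9 and 5 pairs called, as without it. With 138 to 317 reads per library, Arrdc1 was the least precisely counted.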
